A study of Rattus norvegicus with 32 samples.

Results

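The genes described here make, import and charge amino acids: 20 cytosolic aminoacyl-tRNA synthetases, 7 enzymes of serine, glycine and one-carbon metabolism, 7 enzymes of asparagine, proline, aspartate, cysteine and branched-chain metabolism, and 9 amino acid transporters. These 43 genes were chosen by name, as every non-control probe of the array whose gene name equals a member, among the 26583 gene names of the array. All 43 were on the array, with 53 probes, and 10 of them had 2 probes. A gene was kept when, for 1 or more of its probes, every array of some group was well above background. This left 40 members at 3 h, of which 37 met the limit in all 4 groups, and 41 members at 6 h, all of which met it in all 4 groups. Slc38a1 was well above background on 0 of 16 arrays at either time. Slc7a3 was well above background on 12 arrays at 3 h and 10 at 6 h, but on all 4 arrays of no group. Cbs was left out at 3 h for the same reason, with 12 arrays well above background, and was kept at 6 h. Mars and Qars lacked a value in Control replicate 2 at 3 h and were fitted without it.

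Aminoacyl-tRNA synthetases join each amino acid to its transfer RNA, and the cytosolic and the mitochondrial set are mostly separate genes. Cells raise many of these genes together with asparagine and serine synthesis and with amino acid uptake when the kinase branch that phosphorylates eIF2 lets the factor ATF4 be translated, as happens when amino acids run short or proteins misfold in the endoplasmic reticulum. ATF4 binds with C/EBP partners to a composite element near the start of such genes, and glioma cells are known for a high demand for imported and newly made amino acids.

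C6 is a rat glioma cell line that carries astrocyte features. The Control cells were untreated, the Ang II cells received 100 nM of the peptide angiotensin II, and the Ang II+Los and Ang II+PD123319 cells received 10 µM of Losartan, an antagonist of the AT1 receptor, or of PD123319, an antagonist of the AT2 receptor, 30 min before the same Ang II dose. Each treatment had 4 replicates at 3 h and 4 at 6 h, so that 32 samples were hybridized to 1 single-dye array each. The Ang II x Control comparison addresses the effect of both receptors, and each antagonist group was compared with Ang II alone to address 1 receptor, called the Losartan comparison and the PD123319 comparison. No group received an antagonist without Ang II. The comparisons share the Ang II arrays. The labels do not say whether the replicates came from separate cultures, so that p-values measure the spread between these samples, which may be technical.

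Values are log2 of the background-subtracted spot signal after cyclic loess among the 16 arrays of a time, so that 1 unit is a doubling. The replicate number is the slide: each slide held 1 array of each group, always at the same position, so that position and treatment cannot be told apart. Of the spots of an array, 55.9% to 64.7% were well above background at 3 h and 64.2% to 79.8% at 6 h. The multiplier that defines well above background in the file headers was 2.6 at 3 h and 13 at 6 h. These shares, the arrays counted for a gene and the members kept are therefore not like for like between the times. Of 7 astrocyte and glioma markers, 5 were well above background on all 16 arrays of each time (S100b, Vim, Nes, Aldoc and Cnp), Slc1a3 was on 0 arrays at either time, and Gfap, the classical astrocyte filament gene, was on 0 arrays at 3 h and 2 at 6 h. The summed signal of the 7 markers overlapped between all groups of a time, from 7150 to 11900 at 3 h and from 7870 to 13100 at 6 h. Of 5 microglia and leukocyte markers, Ptprc was well above background on 0 arrays and Aif1, Itgam and Cd68 on all, and the summed signal of the list lay between 169 and 364 at 3 h and between 271 and 494 at 6 h, with overlapping groups. The summed signal of 4 fibroblast and mesenchymal markers was 669 to 870 in Control and 511 to 658 in Ang II at 6 h, groups that did not overlap. That of 4 endothelial markers was 146 to 192 in Control and 129 to 143 in Ang II at 6 h, again without overlap. At 6 h Vwf and Cdh5 were well above background on all 16 arrays, Kdr on 11 and Pecam1 on 0. At 3 h both lists overlapped between the groups. The part of these markers in the results was not tested.

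Some Control arrays stood apart, and the results below rest on them. Ddit3, which encodes the stress factor CHOP downstream of ATF4, had log2 signals of 10.25, 15.13, 15.03 and 15.02 in Control replicates 1 to 4 at 3 h, and of 10.2, 10.33, 15.05 and 10.08 in Ang II. At 6 h, the Ddit3 log2 signals were 10.21, 15.03, 10.42 and 14.87 in Control and 9.87, 12.8, 10.26 and 12.95 in Ang II. The Control arrays of replicates 2 and 4 were therefore high at both times while the treated arrays of those slides were lower, all 4 arrays of replicate 3 were high at 3 h, and all 4 arrays of replicate 1 were low. Trib3, a pseudokinase gene induced by ATF4 and CHOP, had the same order at 3 h, with log2 signals of 6.62, 11.58, 11.99 and 11.95 in Control and 6.32, 7.35, 12 and 7.45 in Ang II. The Ang II+Los and Ang II+PD123319 arrays followed the Ang II array of their slide: Ddit3 at 3 h had log2 signals of 10.17, 10.8, 14.97 and 10.15 with Losartan and of 10.42, 10.63, 15.16 and 10.32 with PD123319. The counts of members and of most gene lists in Ang II x Control are given with and without the slides of replicates 2 and 4, and the values of single genes by pair or by array where the results turn on them.

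**Figure D1:**
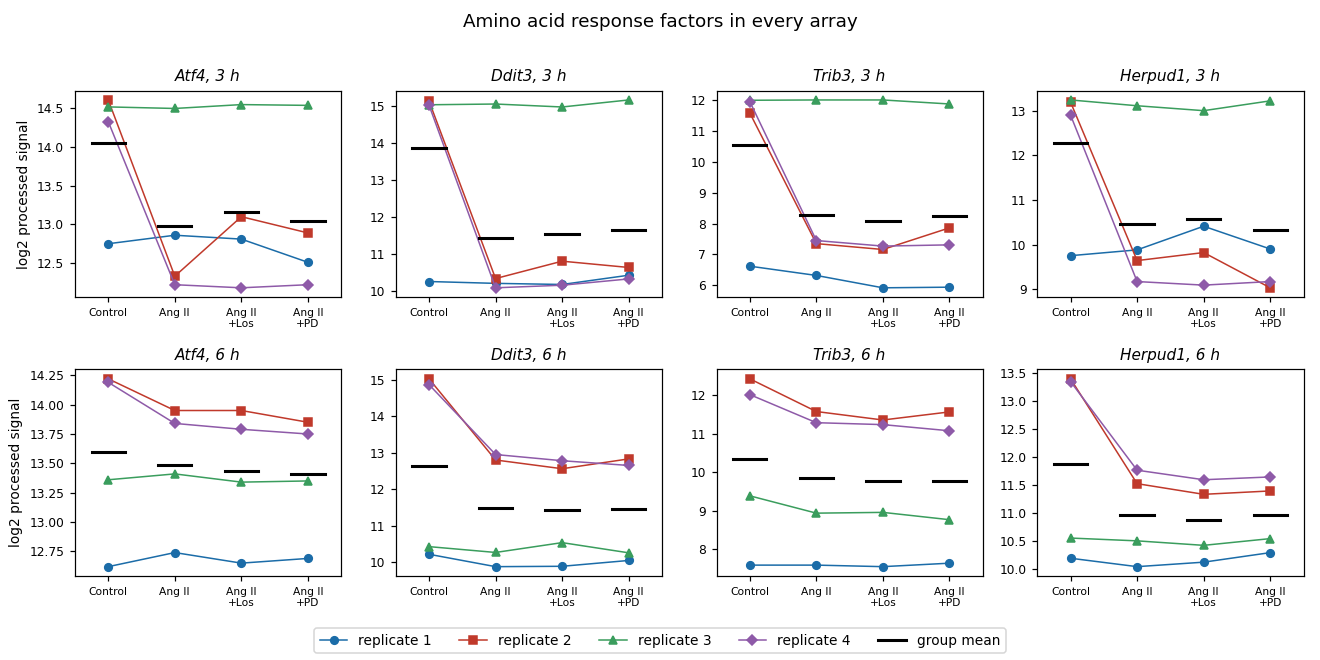
Log2 processed signal of Atf4, Ddit3, Trib3 and Herpud1 (vertical axis) in the 4 groups (horizontal axis) at 3 h (upper row) and 6 h (lower row), with 1 coloured line for each replicate number, that is, each slide, and a black bar for the group mean of 4 arrays. Control replicates 2 and 4 lie above the treated arrays of their slides, with pair differences of Ang II minus Control of -4.8 and -4.95 for Ddit3 at 3 h.

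The composite element bound by ATF4 was looked up in the promoters of the members, because ATF4 targets are known to share it. The RefSeq promoter table (build GRCr8, 250 bases before to 50 after a transcription start) held 36 of the 43 members, and 42 members were matched to a RefSeq gene. The motif TGATGNAA was the only one searched, on both strands. It was found in 12 of these 36 members (33.3%), against 4.16% of the 27457 genes and 3.98% of the 33469 promoters of the table. By role, it was found in 7 of 17 cytosolic synthetases (Aars, Cars, Iars, Mars, Nars, Tars and Yars), in 3 of 7 transporters (Slc1a4, Slc7a1 and Slc38a1), in 2 of 6 enzymes of the asparagine to branched-chain list (Got1 and Pycr1) and in 0 of 6 serine, glycine and one-carbon enzymes. It was found in 0 of 16 mitochondrial synthetases and in 4 of 16 amino acid response factors. A match is a description of these letters and not a binding site.

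In the 6 members below, the match lies within the 120 bases before the start, and these bases are shown 5′ to 3′ on the strand of the gene because the match falls inside them, which is how these 6 were chosen. Capitals mark the match, which reads TTGCATCA or the like where it lies on the opposite strand. The match began 112 bases before the start in Aars, 30 in Slc7a1, 27 in Tars, 24 in Iars, 17 in Mars and 14 in Nars.
Aars (chr19:55908362-55908481, plus strand): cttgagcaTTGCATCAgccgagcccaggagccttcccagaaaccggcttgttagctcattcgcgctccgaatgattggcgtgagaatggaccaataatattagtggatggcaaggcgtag
Iars (chr17:15193653-15193772, minus strand): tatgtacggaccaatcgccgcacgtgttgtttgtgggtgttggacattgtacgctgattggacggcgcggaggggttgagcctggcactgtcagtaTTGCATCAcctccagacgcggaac
Tars (chr2:62114803-62114922, minus strand): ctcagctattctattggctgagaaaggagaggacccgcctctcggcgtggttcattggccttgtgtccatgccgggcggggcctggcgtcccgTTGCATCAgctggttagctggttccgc
Mars (chr7:65023754-65023873, minus strand): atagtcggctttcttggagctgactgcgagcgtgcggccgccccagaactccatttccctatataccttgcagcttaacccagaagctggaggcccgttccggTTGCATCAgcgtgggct
Nars (chr18:60275783-60275902, minus strand): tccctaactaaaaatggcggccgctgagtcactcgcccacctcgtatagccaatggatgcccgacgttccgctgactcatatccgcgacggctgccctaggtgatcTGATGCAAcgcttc
Slc7a1 (chr12:11664368-11664487, plus strand): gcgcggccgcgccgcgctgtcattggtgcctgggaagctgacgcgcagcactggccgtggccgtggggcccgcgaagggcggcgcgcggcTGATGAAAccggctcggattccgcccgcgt
In 5 of the 6, all but Aars, the match lay within the last 30 bases before the start, and the letters TTGCATCA occurred in Aars, Iars, Tars and Mars. Aars had a further match that began 10 bases into the transcript, Cars had its match 18 bases in and Yars 39 bases in.

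In the Ang II x Control comparison at 6 h, 11 of 41 members fell and 0 rose past both limits, which asked for an unadjusted limma p under 0.05 together with a fold outside 0.8 to 1.2. Over all 16446 genes tested, 11.5% passed both limits, 6.79% higher and 4.68% lower, whereas the members that fell made up 26.8%. The members' median log2 fold change was -0.29, with 36 of 41 below 0, against a median of -0.01 over all genes. The folds of the 11 members lay between 0.62 and 0.778. None of the 41 members had a Benjamini-Hochberg adjusted p under 0.05, and the lowest was 0.0828 in limma. The Control and Ang II arrays overlapped in each of the 41 members, the 11 included, and the share over all genes is not given here.

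**Figure D2:**
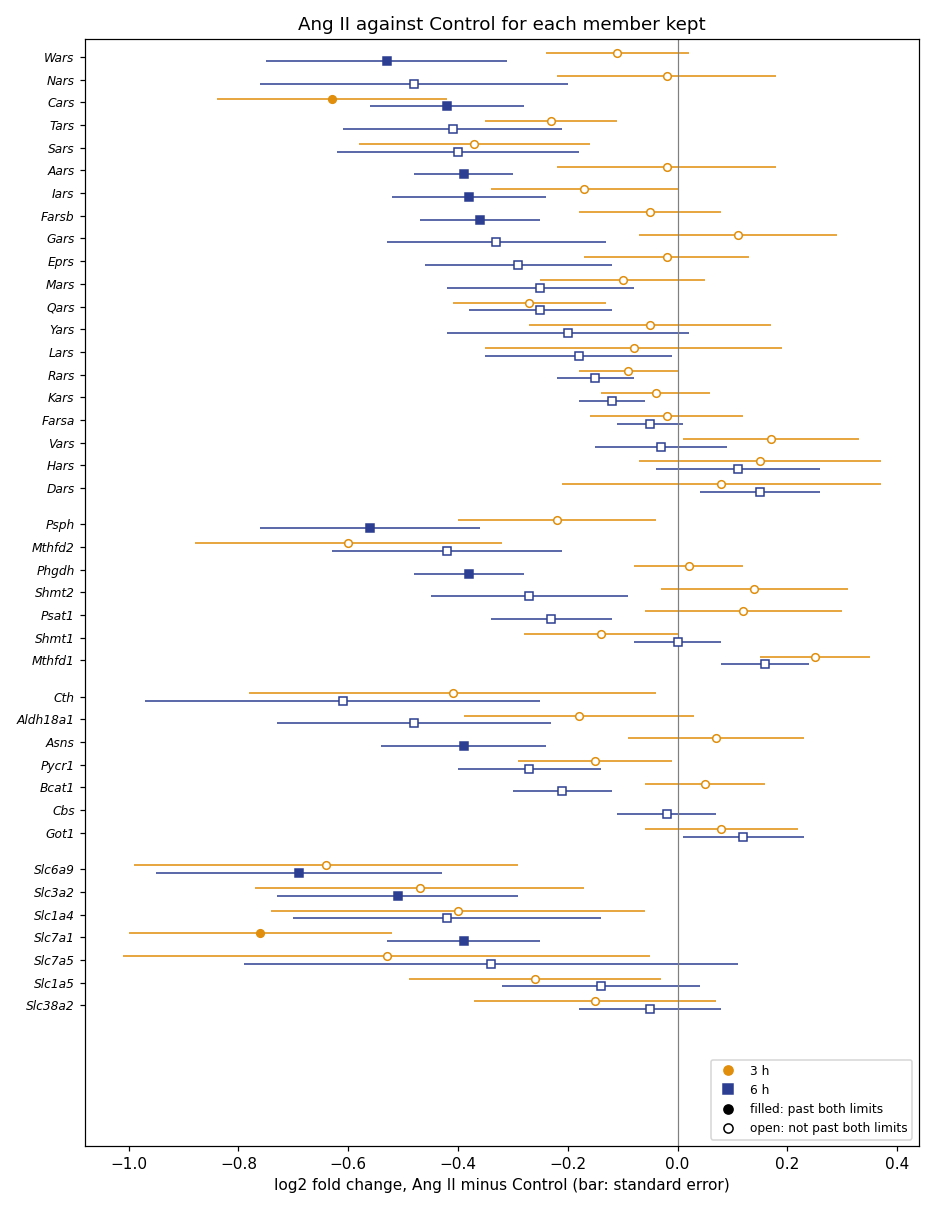
Log2 fold change of Ang II minus Control (horizontal axis, bar: standard error of the limma fit, 4 arrays per group) for every member kept, grouped from top to bottom as synthetases, serine, glycine and one-carbon enzymes, the asparagine to branched-chain enzymes, and transporters, with circles for 3 h and squares for 6 h. Filled symbols passed both limits: 11 members at 6 h, all below 0, and 2 at 3 h.

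Among the 20 cytosolic synthetases, 5 fell at 6 h (Aars, Cars, Farsb, Iars and Wars) and 18 had a log2 fold change below 0, with a median of -0.27. Aars, which charges the tRNA of alanine, had log2 signals of 12.04, 13.3, 12.64 and 13.19 in Control replicates 1 to 4 and of 11.94, 12.72, 12.44 and 12.52 in Ang II. The Aars level was lower in all 4 pairs, most in replicates 2 and 4. Its log2 fold change was -0.39 ± 0.09 (SE, 4 arrays per group, limma adjusted p = 0.0828). This SE and those below come from the limma fit, in which the 4 groups of a time share 1 estimate of the spread. They are not the spread of the 4 pair differences. The Aars probe lies at chr19:40974359-40974418 on rn4, the build of the file headers.

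Farsb, the beta subunit of the phenylalanine enzyme, had log2 signals of 11.07, 11.88, 11.31 and 12.04 in Control and of 10.97, 11.25, 11.22 and 11.42 in Ang II. Cars, the cysteine enzyme, had 9.36, 10.63, 10.05 and 10.31 in Control and 9.32, 9.9, 9.94 and 9.52 in Ang II. Both were lower in all 4 pairs, by a log2 fold change of -0.36 ± 0.11 for Farsb (adjusted p = 0.122, limma) and of -0.42 ± 0.14 for Cars (adjusted p = 0.136, limma), and in both the pairs of replicates 1 and 3 differed by 0.11 or less. Farsa, the alpha subunit that forms 1 enzyme with Farsb, had a log2 fold change of -0.05 ± 0.06 and did not pass. Wars (tryptophan) had a log2 fold change of -0.53 ± 0.22 (adjusted p = 0.194, limma) and Iars (isoleucine) of -0.38 ± 0.14 (adjusted p = 0.172, limma), and each was higher in 1 of 4 pairs. The 15 synthetases that did not pass ranged from -0.48 ± 0.28 in Nars (asparagine) to 0.15 ± 0.11 in Dars (aspartate), and Rars passed the limit on p but not the limit on the fold change (-0.15 ± 0.07, fold 0.902, adjusted p = 0.22, limma). Gars, Nars and Wars each had a probe that passed and another that did not. These gave -0.44 ± 0.15 and -0.22 ± 0.26 for Gars, -0.49 ± 0.17 and -0.47 ± 0.46 for Nars, and -0.62 ± 0.2 and -0.43 ± 0.25 for Wars.

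Among the serine, glycine and one-carbon enzymes, 2 of 7 fell at 6 h, and both belong to the pathway from a glycolytic intermediate to serine. Phgdh, its first enzyme, had log2 signals of 13.88, 14.8, 13.88 and 14.84 in Control and of 13.7, 14.25, 13.76 and 14.17 in Ang II. Psph, the phosphatase of its last step, had 9.2, 11.04, 9.31 and 11 in Control and 9.16, 9.89, 9.2 and 10.05 in Ang II. The signals were lower in all 4 pairs for both genes, and the Control arrays of replicates 2 and 4 were the 2 highest of the 8 in each. The log2 fold change was -0.38 ± 0.1 for Phgdh (adjusted p = 0.107, limma) and -0.56 ± 0.2 for Psph (adjusted p = 0.152, limma). Psat1, the aminotransferase between them, had -0.23 ± 0.11 and did not pass, nor did Mthfd2, the mitochondrial folate enzyme (-0.42 ± 0.21), Shmt2 (-0.27 ± 0.18), Shmt1 (0 ± 0.08) or Mthfd1, which was higher in all 4 pairs (0.16 ± 0.08). The Phgdh probe lies at chr2:193147943-193148002 on rn4.

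Asns, the asparagine synthetase gene, was the member that fell among the 7 enzymes of the asparagine to branched-chain list. Its log2 signals at 6 h were 11.09, 13.33, 11.96 and 13.22 in Control and 11.12, 12.57, 11.81 and 12.54 in Ang II (probe at chr4:32759136-32759195 on rn4). Its signal differed by 0.15 or less in the pairs of replicates 1 and 3 and fell by 0.77 and 0.68 in those of replicates 2 and 4, for a log2 fold change of -0.39 ± 0.15 (adjusted p = 0.169, limma). The lowest log2 fold change of the list belonged to Cth, the last enzyme of cysteine synthesis from homocysteine, with -0.61 ± 0.36 and pair differences of 0.4, -1.5, 0.14 and -1.48, and it did not pass. Aldh18a1 (-0.48 ± 0.25) and Pycr1 (-0.27 ± 0.13), both of proline synthesis, Got1 (0.12 ± 0.11) and Cbs (-0.02 ± 0.09) did not pass either. The Pycr1 value averages a probe that passed (-0.49 ± 0.13, mean log2 signal 11.12) with a weak probe that did not (-0.04 ± 0.14, at 5.05). That of Aldh18a1 likewise averages a probe that passed (-0.5 ± 0.22) with another that did not (-0.47 ± 0.3). Bcat1, a branched-chain aminotransferase, passed the limit on p but not that on the fold change (-0.21 ± 0.09, fold 0.862, adjusted p = 0.22, limma).

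Among the transporters, 3 of 7 kept members fell at 6 h, and all 7 log2 fold changes were below 0, with a median of -0.39. Slc7a1, the cationic amino acid transporter, had log2 signals of 7.18, 8.76, 8.19 and 8.48 in Control and of 7.13, 7.98, 8.05 and 7.9 in Ang II. It was lower in all 4 pairs, with a log2 fold change of -0.39 ± 0.14 (adjusted p = 0.152, limma). Its probe with a mean log2 signal of 5.27 gave -0.44 ± 0.12 and passed, and that at 10.32 gave -0.34 ± 0.17 and did not. Slc3a2, the heavy chain that carries several light chains to the membrane, had 10.59, 13.03, 10.88 and 12.64 in Control and 10.68, 11.95, 10.8 and 11.69 in Ang II. Its log2 fold change was -0.51 ± 0.22 (adjusted p = 0.218, limma), and the pairs of replicates 1 and 3 were near 0 (0.09 and -0.09). Slc7a5, the light chain that pairs with Slc3a2 to import leucine and other large neutral amino acids, had 7.14, 9.96, 8.14 and 9.18 in Control and 8.17, 8.51, 8.45 and 7.95 in Ang II. Slc7a5 was higher in the pairs of replicates 1 and 3 (1.03 and 0.32) and lower in those of replicates 2 and 4 (-1.46 and -1.23), and its log2 fold change of -0.34 ± 0.45 (adjusted p = 0.708, limma) did not pass. Slc6a9, a glycine transporter, fell by 0.69 ± 0.26 on the log2 scale (adjusted p = 0.164, limma), and Slc1a4 (-0.42 ± 0.28), Slc1a5 (-0.14 ± 0.18) and Slc38a2 (-0.05 ± 0.13) did not pass.

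**Figure D3:**
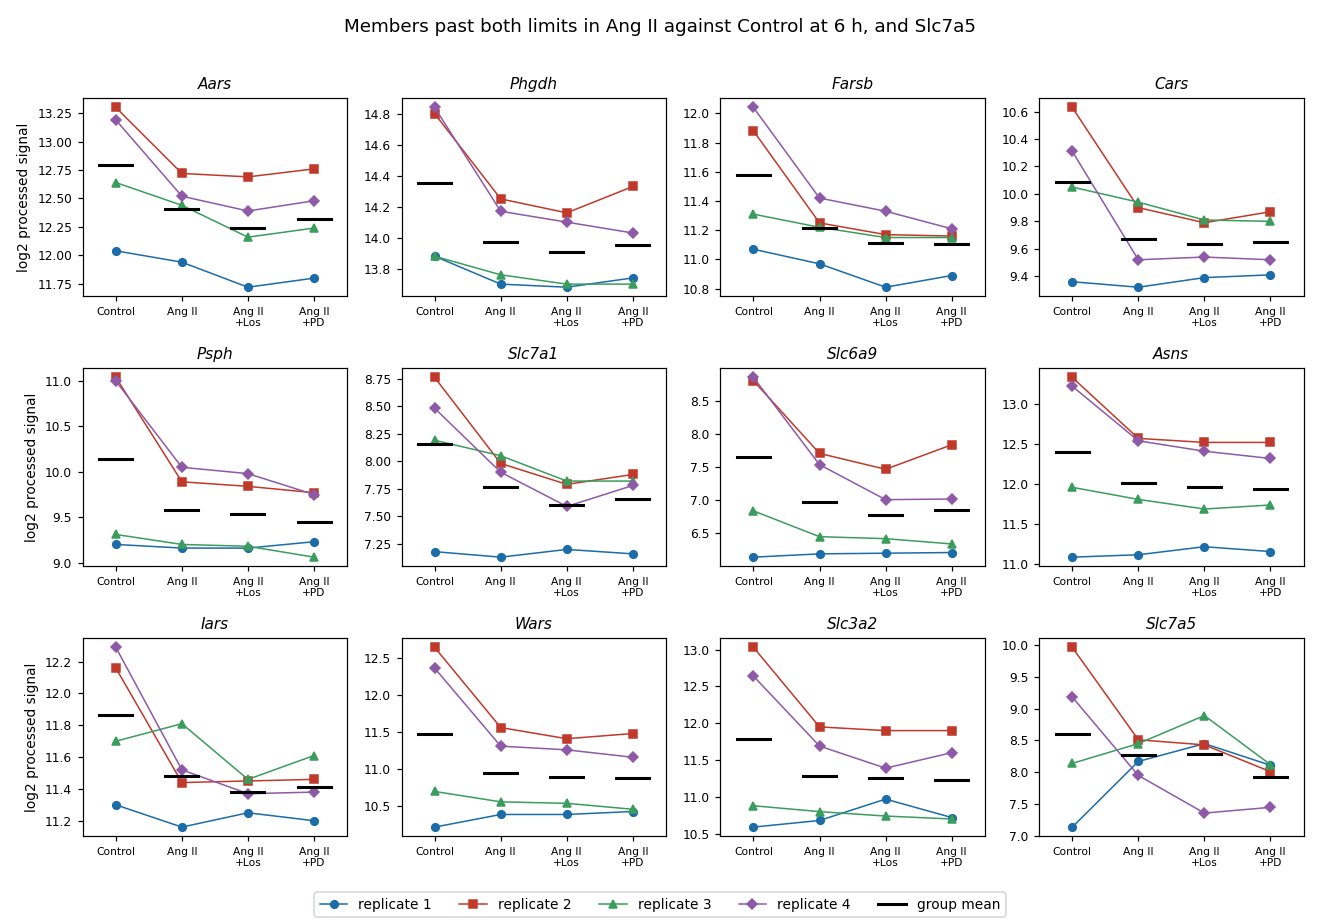
Log2 processed signal at 6 h (vertical axis) in the 4 groups (horizontal axis) for the 11 members that passed both limits in Ang II x Control and for Slc7a5, with 1 coloured line per replicate number (slide) and a black bar for the group mean of 4 arrays. In each panel the Control arrays of replicates 2 and 4 lie above the Ang II arrays of the same slides, and the pair differences of replicates 1 and 3 are smaller, while those of Slc7a5 lie above 0 (1.03 and 0.32).

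The fall at 6 h lay in the slides of replicates 2 and 4. The members' median difference of Ang II to the Control array of the same slide was 0.11, -0.59, -0.05 and -0.66 in replicates 1 to 4, with 12, 39, 26 and 40 of 41 members below 0. Over all genes the same medians lay between -0.03 and 0.01. The antagonist groups showed the same order against those Control arrays: the medians were 0.17, -0.69, -0.17 and -0.77 with Losartan and 0.12, -0.74, -0.16 and -0.83 with PD123319. In all 3 treated arrays, 37 of 41 members in replicate 2 and 39 in replicate 4 lay below the Control array of the slide, against 24 in replicate 3, where 2 lay above it in all 3, and 6 in replicate 1, where 27 lay above it in all 3. The members' median SD over the 4 arrays at 6 h was 0.68 in Control and 0.26 to 0.32 in the treated groups. The limma fit shares 1 estimate of the spread among these groups. Fitted without the replicate block, the count was 0. With the slides of replicates 1 and 3 alone, 0 members fell, 2 rose (Dars and Slc7a5, named after their values were seen), and the median was 0.03. In this setting 5.18% of all genes rose and 2.51% fell, so that the members' 4.88% that rose was not above that of all genes. Without replicate 4 the count was 0, without replicate 2 it was 2 (Aars and Phgdh), and without replicate 1 it was 27. The share of all genes in these fits is not given here, so that these counts have no background beside them. The first scan, which held replicates 1 to 3, gave 0, and the other scan held 1 replicate only.

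**Figure D4:**
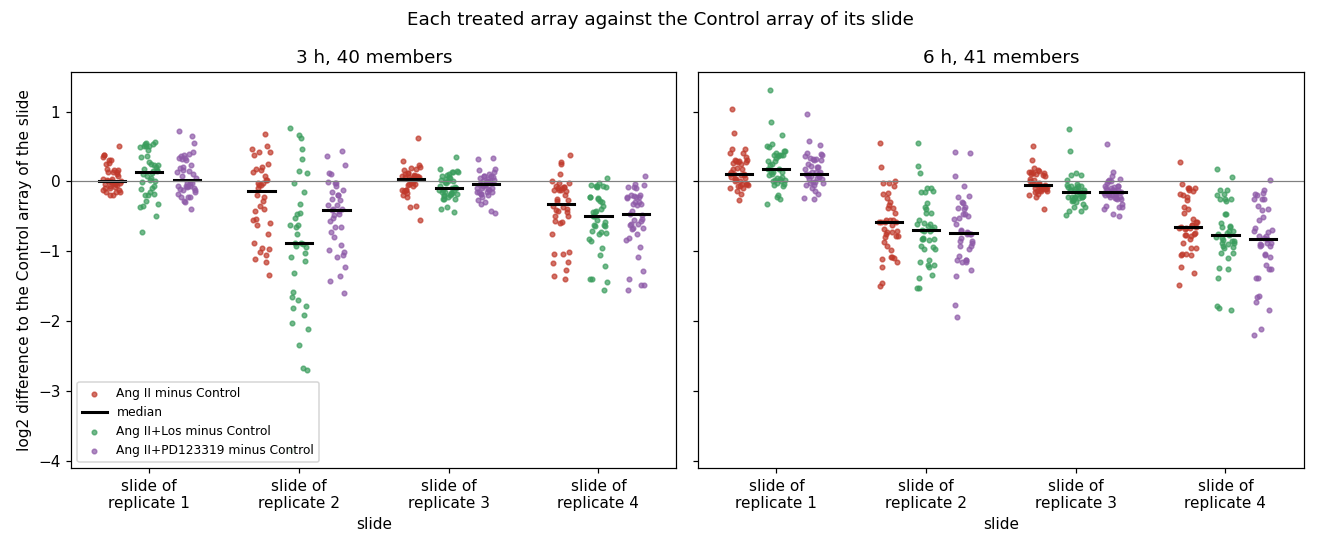
Log2 difference of each treated array to the Control array of its slide (vertical axis) for the 40 members kept at 3 h (left) and the 41 at 6 h (right), by slide (horizontal axis), with 1 point per member, 1 colour per treated group and a black bar for the median. At 6 h the medians of all 3 treated groups are between -0.83 and -0.59 in replicates 2 and 4 and between -0.17 and 0.17 in replicates 1 and 3.

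At 3 h, 2 of 40 members fell in Ang II x Control and 0 rose, against 10.9% of 13630 genes past both limits (4.98% higher and 5.96% lower), so that the members' share was not above that of all genes. Slc7a1 had log2 signals of 7.09, 8.32, 8.83 and 7.96 in Control and of 6.94, 6.98, 8.27 and 6.95 in Ang II. It was lower in all 4 pairs, with a log2 fold change of -0.76 ± 0.24 (adjusted p = 0.325, limma). Of its 2 probes, 1 was well above background on all 4 arrays only in Control, and so was kept through the group where Slc7a1 was high. That probe, with a mean log2 signal of 4.62, gave -0.33 ± 0.21 and did not pass. The other probe, at 10.17 and well above background on all 16 arrays, gave -1.2 ± 0.34 and passed. The value of -0.76 averages both probes. Cars had 8.97, 10.43, 10.55 and 10.36 in Control and 8.94, 9.28, 10.63 and 8.96 in Ang II, with a log2 fold change of -0.63 ± 0.21 (adjusted p = 0.337, limma) that lay in replicates 2 and 4, and with these slides left out it was 0.03.

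The transporters were again lower than the other roles at 3 h, with all 7 log2 fold changes below 0 and a median of -0.47, against -0.05 in the synthetases, -0.05 in the asparagine to branched-chain enzymes and 0.02 in the serine, glycine and one-carbon enzymes. The difference between the roles was not tested. Slc3a2 had log2 signals of 10.72, 13.17, 12.83 and 12.32 in Control and of 10.88, 12.22, 12.77 and 11.28 in Ang II (-0.47 ± 0.3, adjusted p = 0.498, limma). Slc7a5 had 7.64, 9.18, 9.96 and 9.5 in Control and 7.55, 8.29, 9.82 and 8.46 in Ang II (-0.53 ± 0.48, adjusted p = 0.626, limma). In both, the pairs of replicates 2 and 4 were lower by 0.89 or more while those of replicates 1 and 3 differed by 0.16 or less. Asns had 10.64, 13.24, 12.82 and 13.09 in Control and 10.94, 13.19, 12.94 and 12.99 in Ang II, a log2 fold change of 0.07 ± 0.16 (adjusted p = 0.884, limma) that was -0.01 after quantile normalization. Phgdh had 13.63, 14.52, 14.65 and 14.42 in Control and 13.66, 14.72, 14.62 and 14.3 in Ang II, a log2 fold change of 0.02 ± 0.1 (adjusted p = 0.953, limma) that was -0.07 after 75th percentile scaling. For Asns and Phgdh the spread at 3 h lay between the slides, with replicate 1 the lowest of every group, and not between Control and Ang II. In 3 members, Gars, Nars and Wars, the 2 probes had opposite signs and differed by more than 0.3: the Wars probes gave -0.27 ± 0.13 and 0.06 ± 0.21, the Nars probes -0.28 ± 0.16 and 0.24 ± 0.32, and the Gars probes -0.15 and 0.29. With the slides of replicates 1 and 3 alone, 0 members passed and the median was 0.03, where 1.22% of all genes rose and 1.3% fell. The count was 1 in the first scan (Shmt2, higher) and 7 in the second (6 lower and 1 higher), without a share of all genes given here.

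The change from 3 h to 6 h was tested by itself, as the interaction of treatment and time over the 32 arrays. An unadjusted p under 0.05 was found in 1 of 40 members, Phgdh (change -0.38 ± 0.14, adjusted p = 0.684, limma), against 7.09% of 13617 genes. Asns, which fell at 6 h alone, had a change of -0.44 ± 0.22 (adjusted p = 0.702, limma). The 2 times had different slides, and the log2 fold changes were below 0 at both in 28 members, above 0 at both in 4 and opposite in 8.

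Between Ang II+Los and Ang II at 3 h, 4 of 40 members passed both limits, 3 lower (Lars, Gars and Hars) and 1 higher (Shmt1), against 10.2% of genes (4.7% higher and 5.49% lower). Lars, the leucine synthetase gene, had log2 signals of 8.92, 10.93, 10.43 and 9.84 in Ang II and of 8.84, 9, 10.19 and 9.49 in Ang II+Los. Its log2 fold change of -0.65 ± 0.27 (adjusted p = 0.425, limma) rested on replicate 2, whose pair differed by -1.93, and was -0.23 without that replicate. Gars, the glycine synthetase gene, had 11.14, 12.15, 11.99 and 11.72 in Ang II and 10.82, 10.87, 11.96 and 11.51 in Ang II+Los, with a log2 fold change of -0.46 ± 0.18 (adjusted p = 0.425, limma). Gars was lower in all 4 pairs, and its value without replicate 2 was -0.19. The Gars probe with a mean log2 signal of 8.68 gave -0.74 ± 0.31 and passed, and that at 14.5 gave -0.18 ± 0.12 and did not. Hars (-0.49 ± 0.22) and Shmt1 (0.34 ± 0.14) each had 1 pair against their direction. Without replicate 2, 0 members passed and the members' median moved from -0.22 to -0.08. The Ang II+Los array of replicate 2 was also low for Slc7a5, at 5.33 against 8.29 in Ang II, where the pairs of the other replicates were -0.63, -0.02 and 0.19 (-0.86 ± 0.48, adjusted p = 0.429, limma). Nars and Wars had probes of opposite sign that differed by 0.59 and 0.62 in this comparison. Asns (-0.24 ± 0.16), Slc3a2 (-0.41 ± 0.3) and Phgdh (0.04 ± 0.1) did not pass.

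At 6 h, 0 of 41 members passed both limits in the Losartan comparison, and 0 had an unadjusted limma p under 0.05, where 0.9% of all genes passed both limits (0.535% higher and 0.365% lower). The log2 fold changes lay between -0.26 and 0.04, with a median of -0.06. Asns had log2 signals of 11.22, 12.52, 11.69 and 12.41 in Ang II+Los, a log2 fold change of -0.05 ± 0.15 to Ang II. The values were -0.06 ± 0.1 for Phgdh, -0.03 ± 0.22 for Slc3a2 and 0.01 ± 0.45 for Slc7a5. Per-gene tests without a shared estimate of the spread, paired or unpaired, also gave 0 members.

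In the PD123319 comparison, 0 of 40 members passed both limits at 3 h and 0 of 41 at 6 h. Of all genes, 2.67% passed at 3 h (2.02% higher and 0.646% lower) and 3.79% at 6 h (2.57% higher and 1.22% lower). An unadjusted limma p under 0.05 was found in 0 members at 3 h and in 1 at 6 h, Mthfd1, whose log2 fold change of -0.21 ± 0.08 (adjusted p = 0.737, limma) did not reach the fold limit. The median over the members was -0.1 at 3 h and -0.11 at 6 h, with 37 of 40 and 39 of 41 below 0. Slc7a5 at 6 h had log2 signals of 8.11, 8.01, 8.12 and 7.45 with PD123319, lower than Ang II in all 4 pairs (-0.35 ± 0.45, adjusted p = 0.942, limma). This was the member that a paired per-gene test without a shared estimate of the spread counted, as 1 of 41. Asns (-0.17 ± 0.16 at 3 h and -0.07 ± 0.15 at 6 h), Phgdh (-0.1 ± 0.1 and -0.02 ± 0.1) and Slc3a2 (-0.06 ± 0.3 and -0.05 ± 0.22) did not pass at either time.

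The mitochondrial synthetases, which charge tRNAs inside the organelle, were set beside the cytosolic ones. At 6 h in Ang II x Control, 0 of 14 passed both limits, with 3 at an unadjusted limma p under 0.05, log2 fold changes between -0.22 and 0.37 and a median of 0.01, where the cytosolic set had 5 of 20 and a median of -0.27. By slide, the mitochondrial medians were 0.02, -0.1, 0.03 and -0.11 and the cytosolic ones 0.17, -0.58, -0.08 and -0.65. At 3 h, 1 of 12 mitochondrial synthetases passed, Sars2, which was lower in all 4 pairs (-0.34 ± 0.12), with a median of 0.01, and 1 of 20 cytosolic ones, with a median of -0.05. With the slides of replicates 1 and 3 alone, 0 of the mitochondrial set passed at either time. In this setting 357 of 14177 genes passed at 3 h and 1308 of 16999 at 6 h. The difference between the sets was not tested. The scaffold genes of the cytosolic multi-synthetase complex, Aimp1, Aimp2 and Eef1e1, had 0 of 3 past both limits at either time in this comparison, with log2 fold changes between -0.16 and 0.07.

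**Figure D5:**
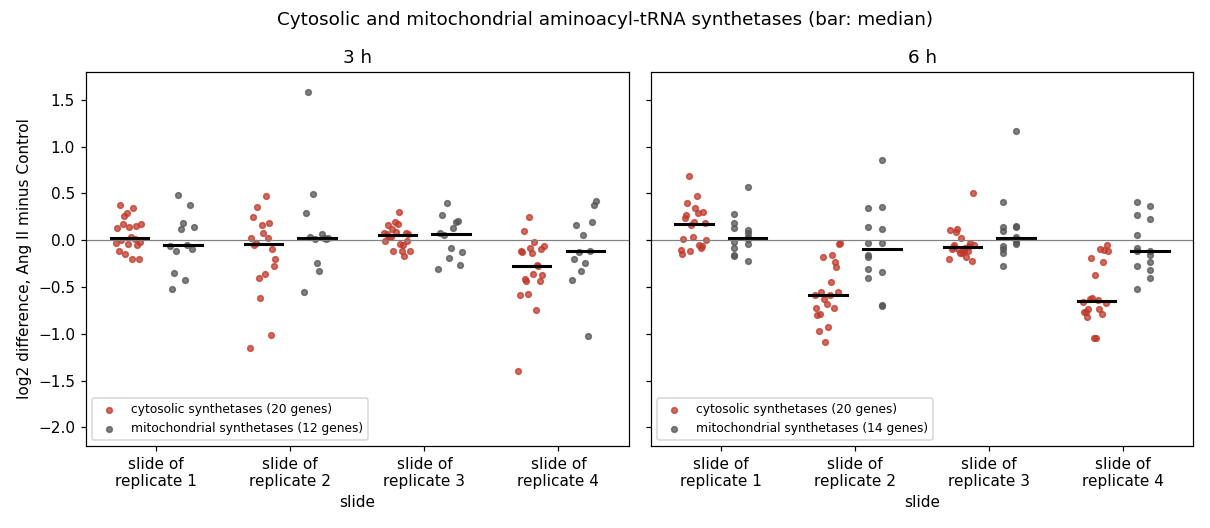
Log2 difference of Ang II minus Control (vertical axis) by slide (horizontal axis) at 3 h (left) and 6 h (right), with 1 point per gene for the cytosolic synthetases (red) and the mitochondrial synthetases (grey) and a black bar for the median. At 6 h the cytosolic medians are -0.58 and -0.65 in replicates 2 and 4, where the mitochondrial medians are -0.1 and -0.11.

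Of 13 amino acid response factors tested, 8 fell at 3 h and 6 at 6 h in Ang II x Control and 0 rose, with medians of -0.52 and -0.25, where 5.96% of all genes fell at 3 h and 4.68% at 6 h. The list's medians by slide were 0.04, -1.14, -0.06 and -0.92 in replicates 1 to 4 at 3 h and 0, -0.52, -0.09 and -0.55 at 6 h, so that the falls lay in replicates 2 and 4. With the slides of replicates 1 and 3 alone, 0 of 13 passed at either time. Of these, Ppp1r15a, whose product reverses the phosphorylation of eIF2 (-1.34 ± 0.42), and Eif2ak3, the kinase PERK (-0.49 ± 0.17), were lower in all 4 pairs at 3 h. At 6 h those lower in all 4 pairs were Ddit3 (-1.16 ± 0.37), Trib3 (-0.5 ± 0.15), Nupr1 (-1.26 ± 0.37) and Herpud1 (-0.91 ± 0.33). The pair differences of Ddit3 at 6 h were -0.34, -2.23, -0.17 and -1.92, with the larger falls in replicates 2 and 4 as in the members, whereas those of Nupr1 were -1.88, -1.51, -0.15 and -1.52. The -1.88 rested on 1 array: Nupr1 in replicate 1 was 6.68 in Ang II, 8.56 in Control, 8.48 with Losartan and 8.54 with PD123319. The Nupr1 log2 fold change of -1.26 includes that array. Of the other amino acid transporters, 3 of 10 fell at 3 h, Slc36a1 (-0.5 ± 0.12), Slc38a7 (-0.46 ± 0.13) and Slc7a11, the cystine importer (-0.35 ± 0.11), and 2 of 11 fell at 6 h, Slc38a7 (-0.5 ± 0.12) and Slc7a11 (-0.67 ± 0.24), all in all 4 pairs, against the same 5.96% and 4.68% of all genes. With the slides of replicates 1 and 3 alone, 1 of 11 fell at 3 h (Slc36a1) and 2 of 11 at 6 h (Slc38a7 and Slc25a22). Of all genes, 1.3% fell at 3 h and 2.51% at 6 h in this setting. Slc7a11 at 6 h had pair differences of -0.06, -1.29, -0.06 and -1.25, the order of the members, whereas those of Slc38a7 were -0.68, -0.9, -0.33 and -0.11.

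Few of the remaining enzymes and sensors passed both limits in Ang II x Control. Of all genes, 4.98% rose at 3 h and 6.79% at 6 h. Of the other amino acid and one-carbon enzymes, 1 of 21 rose at 3 h, Glud1 (0.45 ± 0.18, higher in all 4 pairs), and 2 of 24 rose at 6 h, Glul and Tyms, each in 3 of 4 pairs, and 0 fell. Of the mTORC1 amino acid sensing genes, 0 of 10 passed at 3 h and 2 of 11 rose at 6 h, Mtor (0.32 ± 0.14) and Sesn1. Mtor had log2 signals of 6.98, 6.88, 7.53 and 6.94 in Ang II and of 6.1, 6.74, 7.41 and 6.82 in Control. It was higher in all 4 pairs, but most of the rise lay in replicate 1, where the Control array was the lowest of either group. With the slides of replicates 1 and 3 alone, 1 of 24 of these enzymes (Ass1, higher) and 2 of 11 of the sensing genes (Rraga and Sesn1, both higher) passed both limits at 6 h, and 0 of 10 of the sensing genes did at 3 h. Of all genes, 5.18% rose and 2.51% fell at 6 h in this setting. Ass1 and Rraga were named after their values were seen. Sesn1 at 6 h was well above background on all 4 arrays with Ang II and with PD123319, on 3 of 4 Ang II+Los and on 2 of 4 Control arrays. Its log2 signals were low, 2.75 to 4.11 in Control and 3.49 to 4.22 in Ang II. In Ang II x Control and the Losartan comparison, only Ang II, where Sesn1 was higher, met the limit, so that no fold is given. Sesn1 was lower than Ang II in all 4 pairs with either antagonist, with a log2 fold change of -0.42 ± 0.18 for PD123319. In the PD123319 comparison at 6 h, Gpt, an alanine aminotransferase, rose in all 4 pairs (0.37 ± 0.09). Amt, of the glycine cleavage system, also passed, but the PD123319 group alone had all 4 arrays well above background, with 3 of 4 in each other group, so that it was kept through the group where it was high and no fold is given. In the Losartan comparison at 3 h, where 5.49% of all genes fell, Pycrl (-0.48 ± 0.18) and Nars2 (-0.4 ± 0.17) fell in all 4 pairs. The largest difference of both lay in replicate 2, as in the members. There Pycrl was 8.63 in Ang II and 7.46 in Ang II+Los, and Nars2 was 6.13 and 5.14. Gpt2 also fell in all 4 pairs, but it was kept through the Ang II group, where it was high. It had 1 of 4 Ang II+Los arrays well above background, so that no fold is given. At 3 h with PD123319, Slc43a2 rose in all 4 pairs (0.29 ± 0.13).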

How the data were processed

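RNA of 32 C6 samples was hybridized to 1-colour Agilent rat arrays. The deposited scanner files hold the spot intensity after background subtraction by Agilent Feature Extraction 9.5.3.1, per the file headers. The authors' deposited value table holds log2 values, which equalled the scanner values within 0.001 in 100% of 561803 compared, and 38.2% of its cells were blank. Probe positions are on rn4, whose annotation was not used here.

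At 3 h, spots without significant signal took the signal error. Outlier-flagged spots were left out, spots of a probe were averaged on the log2 scale, and probes with more than 2 gaps in 16 arrays were dropped. Cyclic loess (3 iterations, span 0.7) was run within each time. A probe was kept when every array of some group was well above background. Kept probes of a gene were averaged as deviations from each probe's mean, a choice made after seeing that a gap in 1 probe of Gars shifted a plain mean. Fits used limma 3.58.1 (R 4.3.3) with the replicate number, which is the slide, as a block and Benjamini-Hochberg adjustment over all genes. Each comparison was fitted to the 16 arrays of its time, whose 4 groups shared 1 estimate of the spread. Both limits were an unadjusted p under 0.05 and a fold above 1.2 or below 0.8. The scripts were tested on simulated data.

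Same-numbered arrays deviated together: all 24 pairs at each time correlated above 0.1, with medians of 0.68 and 0.69. The members and lists were chosen with earlier results of these data known. All 43 members are accounted for. Per-array values are given for members past both limits in the same direction in all 4 pairs (at most 6 per comparison) and always for Asns, Phgdh, Slc7a5 and Slc3a2. Genes of the comparison lists are named by the same rule on limits and direction (at most 4 per list and comparison), as are probes of opposite sign that differ by more than 0.3. Other genes were named after their values were seen. Alternatives were fits without the block, t-tests per gene, other scaling, background, filters, probes and values, 8 arrays alone and each replicate left out. Slides 1 and 3 alone and each scan alone were added after seeing the data. Promoters came from RefSeq (GRCr8).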

Additional observations from a re-analysis of the deposited data

Results flagged for a closer look

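Of 17 sets of pair differences and 68 groups of 4 arrays examined, 8 held a value far from the other 3, and chance gives about 1 in 20. The pair difference of Lars with Losartan against Ang II at 3 h was -1.93 in replicate 2. The log2 signal of Slc7a1 at 3 h was 8.27 in Ang II and 8.65 in Ang II+Los in replicate 3, above the other arrays of its group. Replicate 1 was the low array for Cars (8.97) and Gars (11) in Control at 3 h, for Slc7a1 in Ang II (7.13) and Ang II+PD123319 (7.16) at 6 h, and for Farsb in Ang II+PD123319 at 6 h (10.89). Phgdh was listed because its Ang II x Control difference changed between the times by -0.38 (limma interaction, adjusted p = 0.684).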

How the results depend on the processing

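The counts of members under each alternative are given here without the share of all genes, so that they have no background beside them. The shares for slides 1 and 3 alone in Ang II x Control stand above. At 6 h, 11 members passed in Ang II x Control. The count was 0 with no replicate block, with paired or unpaired t-tests per gene and in the first scan alone, 7 with 8 arrays and 2, both higher, with slides 1 and 3 alone. Leaving out 1 replicate gave 0 to 27. Other scaling, background, filter, probe and value settings gave 8 to 14, all lower. Over all genes, 3536 had an unadjusted and 0 an adjusted p under 0.05 (limma), against 1 without a filter, 69 with the strict filter, 47 with the deposited values and 229 without replicate 3, with 0 members among them.

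At 3 h, the 2 members of Ang II x Control became 0 with no replicate block, either t-test or slides 1 and 3 alone. They became 1 in the first scan and 7 in the second. The count was 4 under 75th percentile scaling, quantile normalization, normexp background or the probe of highest mean signal per gene. It was 1 to 5 when a replicate was left out. The 4 members of the Losartan comparison became 1 with no replicate block, 0 with either t-test, 8 arrays or slides 1 and 3 alone, 7 in the first scan and 1 in the second, with 0 to 5 when a replicate was left out. The PD123319 comparison at 6 h had 1 member with paired t-tests or 75th percentile scaling and 2 with 8 arrays, with 0 to 2 when a replicate was left out. Ang II+Los at 6 h and Ang II+PD123319 at 3 h had 0 members under each of the 15 alternatives run. The single member whose difference changed with time became 0 with no replicate block or 75th percentile scaling, 10 with normexp background and 2 with the strict filter, with 0 to 3 when a replicate was left out. The cause was not tested. The second scan at 6 h held 1 slide and was not fitted.

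Some directions turned. In Ang II x Control at 3 h, slides 1 and 3 alone gave 0.03 for Cars, 0 for Phgdh and 0.05 for Slc3a2, quantile normalization gave -0.01 for Asns, and Phgdh was -0.07 under 75th percentile scaling, -0.06 under quantile normalization and in the second scan, -0.01 with normexp and -0.04 (without replicate 2) to 0.06 (without replicate 4). In the Losartan comparison at 3 h, Asns was 0.03 with slides 1 and 3, Phgdh -0.04 to 0.09 with a replicate left out and -0.04 in the second scan, and Slc7a5 0.07 in the second scan. At 6 h, Slc7a5 in Ang II x Control was -0.79 (without replicate 1) to 0.04 (without replicate 2) and 0.67 with slides 1 and 3. With Losartan at 6 h, Slc7a5 was -0.06 with normexp, -0.08 without replicate 1 and -0.13 to 0.22 over all 4 omissions, and Slc3a2 was -0.14 to 0.06 over them. With PD123319 at 6 h, Phgdh was 0.02 with normexp and -0.05 to 0.02 with a replicate left out. Of the single-gene values under the alternatives chosen at the start, 444 kept direction and side of the limit, 100 no longer passed, 4 newly passed and 13 turned. The number of arrays limits the precision.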
